A study of Setaria viridis with 22 samples.

Results

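RNA from whole inflorescences of the *spp1* mutant of Setaria viridis was compared with that of A10.1, the wild-type accession, at 14 d after sowing (DAS). The comparison was chosen by genotype and stage alone and holds 8 of the 22 libraries of the series, 4 of *spp1* and 4 of A10.1. The mutant carries a mutation in *SPARSE PANICLE1* (*SPP1*) in the A10.1 background, and the labels name no allele. Both genotypes grew in a chamber at 31°C in the day and 23°C at night with 12 h of light, with no further treatment in the labels, and 10 to 30 inflorescences dissected from seedlings were pooled for each library. Further libraries of both genotypes at 12 DAS (3 each) and at 10 DAS (4 each) were used only to follow the genes that changed at 14 DAS.

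*SPP1* encodes an auxin importer of the AUX1 family. Auxin marks the flanks of a grass inflorescence where branch meristems form, and importers of this family raise the auxin content of the cells that hold them. Branch meristems of Setaria then divide again, and the tips become either spikelets or sterile bristles. Mutants of maize have identified many of the regulators of these steps, and the names of the maize genes are used below for their Setaria homologs.

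Expression was given as FPKM (mapped fragments scaled to transcript length and library size), which corrects for transcript length and library size but carries no counts. Precision was therefore judged from the spread between replicates. Between 10.4 M and 18.8 M first reads of a library mapped. Replicate 4 of *spp1* stood apart from the other libraries, with the fewest mapped first reads (10.4 M), the lowest share of reads mapped (86.69%), and 13129 genes listed at 0, against 12056 to 12413 in the other 7 libraries. On the first principal component, which held 50.3% of the variance, it lay at 57.6 and the others between -29.1 and 21.4. The results are therefore given with and without this library. The markers of inflorescence meristems looked for (*BIF2*, *ba1*, and *ra2* among them) were detected in every library. *BIF2*, the homolog of a maize kinase gene of branch initiation (Sevir.3G410700), ranged from 49.0 to 153 FPKM in *spp1* and from 67.6 to 109 FPKM in A10.1.

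Of 35214 transcripts, 17645 had a mean of at least 1 FPKM over the 8 libraries and were tested. At an adjusted p of 0.05 (limma on log2(FPKM + 1), Benjamini-Hochberg over all genes tested), 341 genes differed between genotypes, which was 1.93% of those tested. In *spp1*, 120 genes were higher (0.68%) and 221 were lower (1.25%). Their median log2 fold changes were 0.68 and -0.82, and 13 higher and 65 lower genes changed more than 2-fold. Fold changes are on the log2(FPKM + 1) scale, *spp1* over A10.1, and understate the change of weakly expressed genes. None of the 341 genes had overlapping values in the 2 genotypes, whereas 14.3% of all genes tested did not overlap.

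The balance of higher and lower genes depended on how the libraries were scaled. The median log2 fold change of all genes tested was -0.10. With libraries rescaled by size factors (the median, over genes, of the ratio to the geometric mean), this median became 0.00, a shift of 0.10, and 425 genes passed, 241 higher and 184 lower. The share of lower genes was 64.8% with FPKM as deposited and 43.3% after this scaling. Of the 341 genes, 283 passed with either scaling, in the same direction (116 higher, 167 lower).

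Without replicate 4 of *spp1*, 568 genes passed, 239 higher (1.35%) and 329 lower (1.86%). Both fits shared 324 genes, so that 17 genes passed only with all 8 libraries and 244 only without replicate 4. Each of the other libraries, when left out, lowered the count. It was 67, 93, 222, and 105 genes without replicates 1, 2, 3, and 4 of A10.1, and 155, 219, and 128 genes without replicates 1, 2, and 3 of *spp1*. In all 8 such fits, 60 genes passed (20 higher, 40 lower). Of 111 genes past the threshold that the naming rule selected, 75, 68, 38, and 67 lost their call without replicates 1, 2, 3, and 4 of A10.1, and 51, 43, 62, and 4 without replicates 1, 2, 3, and 4 of *spp1*.

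Functions were taken from the descriptions in the authors' deposited table of genes. That table lists only genes which the authors had called from the same libraries, so a count over its genes is not independent evidence of a direction. It described 327 of the 341 genes. Of the 2457 described genes that were tested, 114 were higher (4.64%) and 213 were lower (8.67%), and their median log2 fold change was -0.41. The counts of each group are to be read beside these values.

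**Figure D1:**
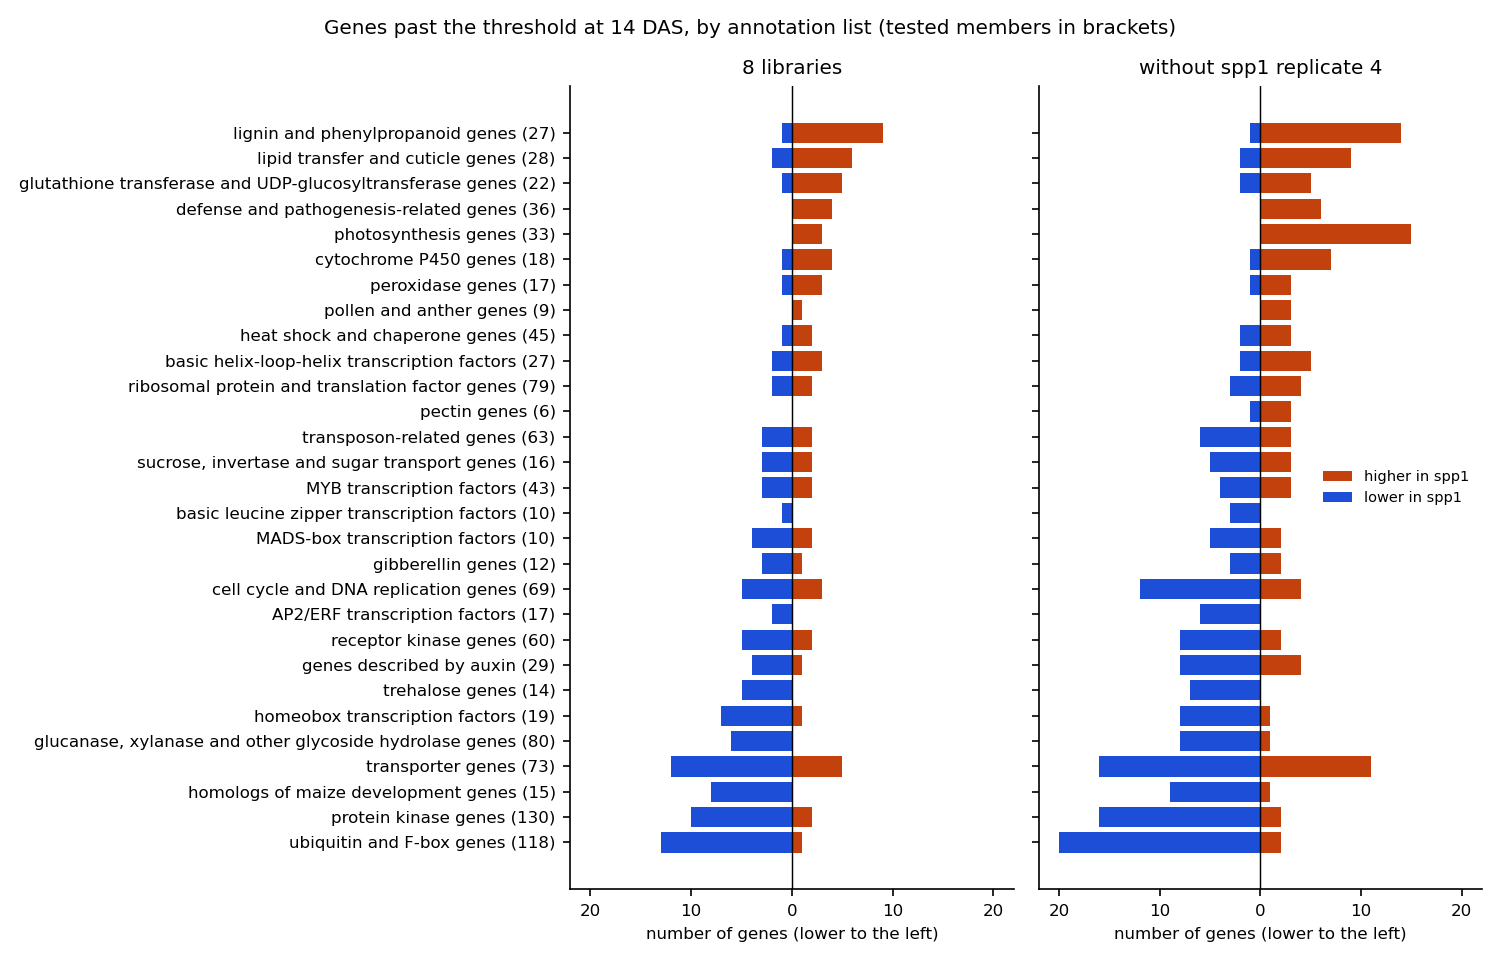
Number of genes past the threshold in *spp1* against A10.1 at 14 DAS for each group of annotated genes with at least 3 such genes in 1 direction in either fit (8 libraries on the left, 7 libraries on the right). Bars to the right count genes higher in *spp1* and bars to the left genes lower in *spp1*, and tested members stand in brackets. Lignin genes had 9 higher and 1 lower with 8 libraries, whereas homologs of maize development genes had 0 higher and 8 lower.

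Homologs of maize genes of branch and meristem development were lower in *spp1* more often than higher. All 15 members were tested, and 8 of them fell and 0 rose, with a median log2 fold change of -0.72. Without replicate 4 of *spp1*, 9 fell and 1 rose, and the median was -0.96. The members with the largest changes are described first.

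*ra3* (Sevir.2G407500), whose maize homolog encodes a trehalose-6-phosphate phosphatase that restricts branching, had 43.5, 40, 42.8, and 42.1 FPKM in *spp1*, against 128, 180, 122, and 155 FPKM in A10.1. All *spp1* libraries, replicate 4 included, lay close together and far below the lowest A10.1 library. The log2 fold change was -1.76 ± 0.12 (SE, limma adjusted p = 0.000491). *bd1* (Sevir.2G437800), homolog of the maize *BRANCHED SILKLESS1* gene for a factor that gives spikelet meristems their identity, had 4.61, 6.08, 2.48, and 0.84 FPKM in *spp1*, against 13.5, 22.1, 15.1, and 27.7 FPKM in A10.1. The lowest value was that of replicate 4 of *spp1*, and the genotypes did not overlap with or without it. The log2 fold change was -2.31 ± 0.39 (SE, limma adjusted p = 0.0218), or -1.94 without replicate 4 of *spp1*.

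*zmm8* (Sevir.4G060800), homolog of a maize MADS-box gene of the *SEPALLATA* class, had 23.8, 24.9, 15.4, and 21.4 FPKM in *spp1*, against 49.0, 63.6, 38.5, and 51.5 FPKM in A10.1. Every *spp1* library was below every A10.1 library. Its log2 fold change was -1.21 ± 0.18 (SE, limma adjusted p = 0.0133). *ba1* (Sevir.5G374100), homolog of the maize *BARREN STALK1* gene for a bHLH factor needed to start axillary meristems, had 33.5, 35.6, 30.7, and 32.3 FPKM in *spp1*, against 73.0, 98.0, 63.6, and 74.0 FPKM in A10.1. Again the genotypes were well apart, and replicate 2 of A10.1 was the highest library. Its log2 fold change was -1.18 ± 0.13 (SE, limma adjusted p = 0.0035). *ra2* (Sevir.5G116100), for a LOB domain factor that in maize restricts branching, had 9.85, 11.6, 10.4, and 14.8 FPKM in *spp1*, against 24.2, 31.3, 25.5, and 22.1 FPKM in A10.1. Here replicate 4 was the *spp1* library nearest to A10.1, without reaching it, and the log2 fold change was -1.08 ± 0.14 (SE, limma adjusted p = 0.00888).

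Other members that fell changed less. *ocl2* (Sevir.7G215400), for a homeodomain factor of the epidermis in maize, had a log2 fold change of -0.90 (limma adjusted p = 0.0371), and *tb1* (Sevir.9G122200), for the TCP factor that represses axillary branches in maize, of -0.65 (limma adjusted p = 0.0218). After median ratio scaling neither gene passed (limma adjusted p = 0.0816 and 0.0756), whereas *ra3*, *bd1*, *zmm8*, *ba1*, and *ra2* did. *ra3*, *ba1*, and *ra2* passed whichever library was left out. The other calls were lost without replicate 1 of A10.1 (*bd1*, *zmm8*, *ocl2*) or replicate 2 of A10.1 (*tb1*) among others, and their adjusted p reached 0.083 for *bd1*, 0.0526 for *zmm8*, 0.113 for *ocl2*, and 0.0743 for *tb1*. In whole inflorescences, fewer cells of a type and less RNA per cell cannot be told apart.

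**Figure D2:**
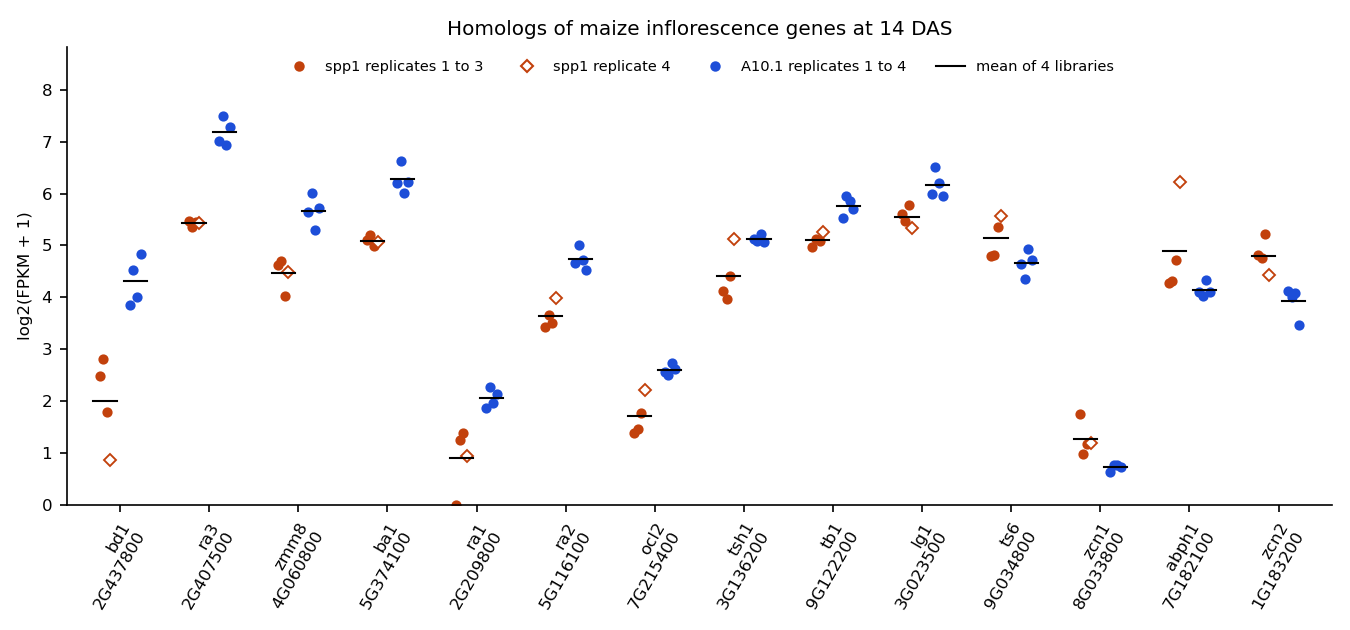
Expression of 14 homologs of maize development genes as log2(FPKM + 1) in each library at 14 DAS, with *spp1* left of A10.1 for each gene and genes ordered by log2 fold change. Circles are libraries, open diamonds are replicate 4 of *spp1*, and black lines are means of 4 libraries. The values of *ra3* lie between 40 and 43.5 FPKM in *spp1* and between 122 and 180 FPKM in A10.1.

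Another 7 members did not pass with all 8 libraries. *ra1* (Sevir.2G209800), a zinc finger gene whose maize homolog restricts branching, had 0.00, 1.40, 1.61, and 0.94 FPKM in *spp1*, against 2.67, 3.83, 2.93, and 3.39 FPKM in A10.1. The groups did not overlap (limma adjusted p = 0.0676). *tsh1* (Sevir.3G136200), for a GATA factor that suppresses bracts in maize, had 16.4, 14.7, 20.3, and 34.0 FPKM in *spp1*, against 33.7, 33.1, 36.5, and 32.5 FPKM in A10.1. Only replicate 4 of *spp1* reached the A10.1 range, and the gene passed without it (log2 fold change -0.96, limma adjusted p = 0.00504). *zcn2* (Sevir.1G183200), of the TFL1 family of floral repressors, had 27.1, 26.0, 36.5, and 20.5 FPKM in *spp1*, against 16.5, 15.1, and 15.9 FPKM in replicates 1 to 3 of A10.1 and less in replicate 4, without overlap. It had an adjusted p of 0.0523 with 8 libraries and of 0.022 without replicate 4 (limma). The log2 fold changes of *lg1* (Sevir.3G023500), *zcn1* (Sevir.8G033800), *ts6* (Sevir.9G034800), and *abph1* (Sevir.7G182100) were -0.61, 0.55, 0.47, and 0.74, with adjusted p values of 0.0623, 0.134, 0.197, and 0.254 by limma. *abph1*, a cytokinin response regulator gene, had 73.9 FPKM in replicate 4 of *spp1* and 18.3 to 25.5 FPKM in the other *spp1* libraries, against 15.4 to 19.2 FPKM in A10.1.

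Among other transcription factors, homeobox and MADS-box genes included more genes that fell than rose. Of 19 homeobox genes tested, 7 fell and 1 rose, and of 10 MADS-box genes 4 fell and 2 rose, with median log2 fold changes of -0.47 and -0.49. Of all 2457 described genes 213 fell and 114 rose, with a median of -0.41. The split of the MADS-box genes was close to this, and so were both medians. The homeobox gene with the largest change was an *HB21*-like leucine zipper gene (Sevir.2G379700). It had 52.6, 51.5, 43.0, and 29.0 FPKM in *spp1*, against 162, 213, 135, and 142 FPKM in A10.1. All *spp1* libraries were well under the lowest A10.1 library, and replicate 4 was the lowest of them. The log2 fold change was -1.88 ± 0.20 (SE, limma adjusted p = 0.0035). In Arabidopsis, *HB21* acts in axillary buds that are held dormant. A *WOX9*-like gene (Sevir.5G266300), related to Arabidopsis genes of meristem maintenance, had a log2 fold change of -1.11 (limma adjusted p = 0.0334) and did not pass after median ratio scaling (limma adjusted p = 0.0662).

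The MADS-box genes that moved were not all of 1 class. Besides *zmm8*, a *SOC1*-like gene (Sevir.9G565200, related to an Arabidopsis gene that promotes flowering) and an *AGL19*-like gene (Sevir.9G347400) fell, with log2 fold changes of -0.64 (limma adjusted p = 0.0228) and -0.85 (limma adjusted p = 0.0247). A gene of the *FRUITFULL* class (Sevir.3G374400) rose, with 2.74, 2.68, 2.69, and 2.29 FPKM in *spp1*, against 1.53, 1.24, 1.15, and 0.93 FPKM in A10.1. The groups were apart by a small margin of FPKM, with a log2 fold change of 0.71 (limma adjusted p = 0.0244). The calls of Sevir.9G565200, Sevir.9G347400, Sevir.3G374400, and Sevir.5G266300 were lost without replicate 1 of A10.1, among others, with adjusted p values of up to 0.0718, 0.0866, 0.0781, and 0.105 when 1 library was left out.

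AP2/ERF genes, which include regulators of spikelet and floral meristems, had 2 lower and 0 higher genes of 17 tested, and 6 lower genes without replicate 4 of *spp1*. The members that fell were *bd1* and an *ERF9*-like gene (Sevir.5G352700). The *ERF9*-like gene had 85.2, 81.9, 81.4, and 86.7 FPKM in *spp1*, against 129, 139, 136, and 139 FPKM in A10.1, a log2 fold change of -0.69 ± 0.07 (SE, limma adjusted p = 0.00306). Replicates of each genotype were close together, and the call held whichever library was left out. Of 43 MYB genes, 2 rose and 3 fell, and of 27 bHLH genes 3 rose and 2 fell. A *RADIALIS*-like gene (Sevir.5G246000) had 2.5, 2, 0.88, and 0.38 FPKM in *spp1*, against 6.06, 8.06, 4.58, and 7.11 FPKM in A10.1. It had the largest change of the MYB genes (log2 fold change -1.68, limma adjusted p = 0.0218, up to 0.0832 when 1 library was left out, replicates 1, 2, and 4 of A10.1 and replicate 3 of *spp1* each ending the call). An *SPL8*-like SBP-box gene (Sevir.1G065500) rose, with a log2 fold change of 0.96 (limma adjusted p = 0.023, up to 0.0701 when 1 library was left out, highest without replicate 3 of *spp1*). A *RAX2*-like MYB gene (Sevir.5G277100), of a family that starts axillary meristems in Arabidopsis, had 3.88, 6.82, 4.75, and 10.7 FPKM in *spp1*, against 17.4, 13.8, 20, and 12.2 FPKM in A10.1. Replicate 4 was again the *spp1* library nearest to A10.1, and the gene passed in no fit that left out a library other than this one (log2 fold change -1.22, limma adjusted p = 0.0499, 0.0844 after median ratio scaling, and 0.00851 without replicate 4 of *spp1*). A *MYB94*-like gene (Sevir.6G166200), related to an Arabidopsis activator of wax synthesis, fell by 0.72 on the log2 scale (limma adjusted p = 0.0135), and a *TCP7*-like gene (Sevir.1G250500) rose by 0.66 (limma adjusted p = 0.018); they passed in 6 and 5 of the 8 fits that left out a library.

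Among genes of trehalose metabolism, some fell and none rose in *spp1*. Trehalose-6-phosphate is made by trehalose-6-phosphate synthases (TPS) and removed by phosphatases such as RA3, and in plants its level follows that of sucrose. Of 14 genes tested, 5 fell and 0 rose, and 13 had a negative log2 fold change, with a median of -0.73. Without replicate 4 of *spp1*, 7 fell. Their summed level was 194 to 266 FPKM in *spp1*, against 405 to 558 FPKM in A10.1.

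A *TPS9*-type gene (Sevir.6G172300) had 2.86, 1.42, 1.76, and 0.73 FPKM in *spp1*, against 8.81, 12.5, 9.72, and 11.5 FPKM in A10.1. The highest *spp1* library was far below the lowest A10.1 library. Its log2 fold change was -2.16 ± 0.22 (SE, limma adjusted p = 0.00319). A *TPS11*-like gene (Sevir.1G354200) had 16.2, 11.8, 22.1, and 14.8 FPKM in *spp1*, against 38.3, 50.2, 39.0, and 39.2 FPKM in A10.1, also without overlap and with a log2 fold change of -1.33 (limma adjusted p = 0.0077). A second *TPS9*-like gene (Sevir.6G150200) had a log2 fold change of -1.23 (limma adjusted p = 0.0122). It lost its call without replicates 1 and 2 of A10.1 (adjusted p up to 0.0507), whereas the other 2 TPS genes and *ra3* passed whichever library was left out. The trehalase gene (Sevir.9G356700), whose enzyme cleaves trehalose, was listed by its description with the glycoside hydrolases. It had 13.5, 13.4, 12.7, and 9.56 FPKM in *spp1*, against 26.4, 35.5, 22.1, and 27.0 FPKM in A10.1, and fell by 1.10 on the log2 scale (limma adjusted p = 0.011).

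Sugar transport genes moved in both directions. Of 16 genes for sucrose use and sugar transport, 2 rose and 3 fell. A *SWEET15*-like gene (Sevir.1G174400), related to Arabidopsis genes for sucrose exporters that are active in senescing leaves and seeds, had 37.9, 54.6, 41.8, and 60 FPKM in *spp1*, against 13.1, 11.6, 18.2, and 15.4 FPKM in A10.1. It had the largest rise among the transporter genes, without overlap, with a log2 fold change of 1.67 ± 0.17 (SE, limma adjusted p = 0.00319). A *SWEET1a*-like gene (Sevir.5G408600) fell, with a log2 fold change of -0.69 (limma adjusted p = 0.0273, up to 0.0965 when 1 library was left out, highest without replicate 1 of A10.1). An inositol transporter gene (Sevir.2G037400) fell as well, with 13.4, 9.93, 11.5, and 11.1 FPKM in *spp1*, against 25.9, 33.5, 25.3, and 23.5 FPKM in A10.1 (log2 fold change -1.16, limma adjusted p = 0.00386). A *ZIFL1*-like gene (Sevir.8G023100), for a carrier of the major facilitator family, fell by 0.79 on the log2 scale (limma adjusted p = 0.0102), and without replicate 1 of A10.1 its adjusted p was 0.0508. Over all 73 transporter genes tested, 5 rose and 12 fell, and without replicate 4 of *spp1* 11 rose and 16 fell. A vacuolar amino acid transporter gene (Sevir.1G353600) had the largest decrease (-2.11, limma adjusted p = 0.0199, passing in 4 of the 8 fits that left out a library), and an aquaporin gene of the *NIP* class (Sevir.4G097800) fell by 0.91 (limma adjusted p = 0.0111, passing in 7 of the 8).

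Among genes of lignin and cuticle synthesis, more rose than fell in *spp1*. Of 27 lignin and phenylpropanoid genes tested, 9 rose and 1 fell, 26 had a positive log2 fold change, and the median was 0.59. Of 28 lipid transfer and cuticle genes, 6 rose and 2 fell, with a median of 0.57. Without replicate 4 of *spp1*, 14 lignin genes rose and 1 fell, and 9 cuticle genes rose and 2 fell. The summed level of the lignin genes overlapped, with 1676 to 2995 FPKM in *spp1*, against 1422 to 1744 FPKM in A10.1, and without replicate 4 of *spp1* its lowest *spp1* sum was 2187 FPKM. That of the cuticle genes did not overlap, with 4196 to 5184 FPKM in *spp1*, against 2965 to 3659 FPKM in A10.1. A phenylalanine ammonia-lyase gene (Sevir.7G178200), for the first enzyme of the phenylpropanoid pathway, had 6.99, 7.94, 6.65, and 5.75 FPKM in *spp1*, against 3.27, 2.93, 2.86, and 2.39 FPKM in A10.1. Every *spp1* library exceeded every A10.1 library, with a log2 fold change of 1.02 ± 0.12 (SE, limma adjusted p = 0.00536).

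A laccase gene (Sevir.8G221400), whose enzymes polymerise lignin, had 86.2, 71.7, 89.6, and 90.7 FPKM in *spp1*, against 42.1, 41.3, 43.9, and 39.9 FPKM in A10.1. Its A10.1 libraries were very close together, and the log2 fold change was 0.99 ± 0.09 (SE, limma adjusted p = 0.00197). A cinnamate 4-hydroxylase gene (Sevir.5G366500), for the next step after phenylalanine ammonia-lyase, rose by 0.81 on the log2 scale (limma adjusted p = 0.0334, up to 0.119 when 1 library was left out, highest without replicate 2 of A10.1). The member that fell was a *UGT84A3*-like gene (Sevir.3G158100), for a glucosyltransferase that acts on cinnamate. It had 9.68, 6.27, 4.86, and 1.30 FPKM in *spp1*, against 30.2, 51.2, 22.3, and 21.4 FPKM in A10.1, a log2 fold change of -2.42 (limma adjusted p = 0.0273), or -1.98 without replicate 4 of *spp1*. Its call was lost without replicates 1, 2, or 4 of A10.1 or replicate 3 of *spp1* (adjusted p up to 0.0913).

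Of the cuticle genes, a GDSL lipase gene (Sevir.4G066700) had 6.90, 7.99, 5.23, and 5.37 FPKM in *spp1*, against 2.25, 2.51, 2.07, and 2.47 FPKM in A10.1. It rose by 1.13 on the log2 scale (limma adjusted p = 0.00558), whichever library was left out. A *CER3*-like gene (Sevir.4G203500), related to an Arabidopsis gene of wax synthesis, had 30.4, 24.8, 36.9, and 34.7 FPKM in *spp1*, against 19.8, 17.1, 17.5, and 19.8 FPKM in A10.1 (log2 fold change 0.73, limma adjusted p = 0.0247). The call of the *CER3*-like gene was lost without replicate 1 of A10.1, among others, with an adjusted p of up to 0.0907. Further GDSL genes (Sevir.4G065800, Sevir.3G077100) rose by 0.84 and 0.67 (limma adjusted p = 0.0497 and 0.0273). Sevir.4G065800 passed in none of the 8 fits that left out a library (adjusted p up to 0.134), and Sevir.3G077100 in 2 of them (up to 0.0896).

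**Figure D3:**
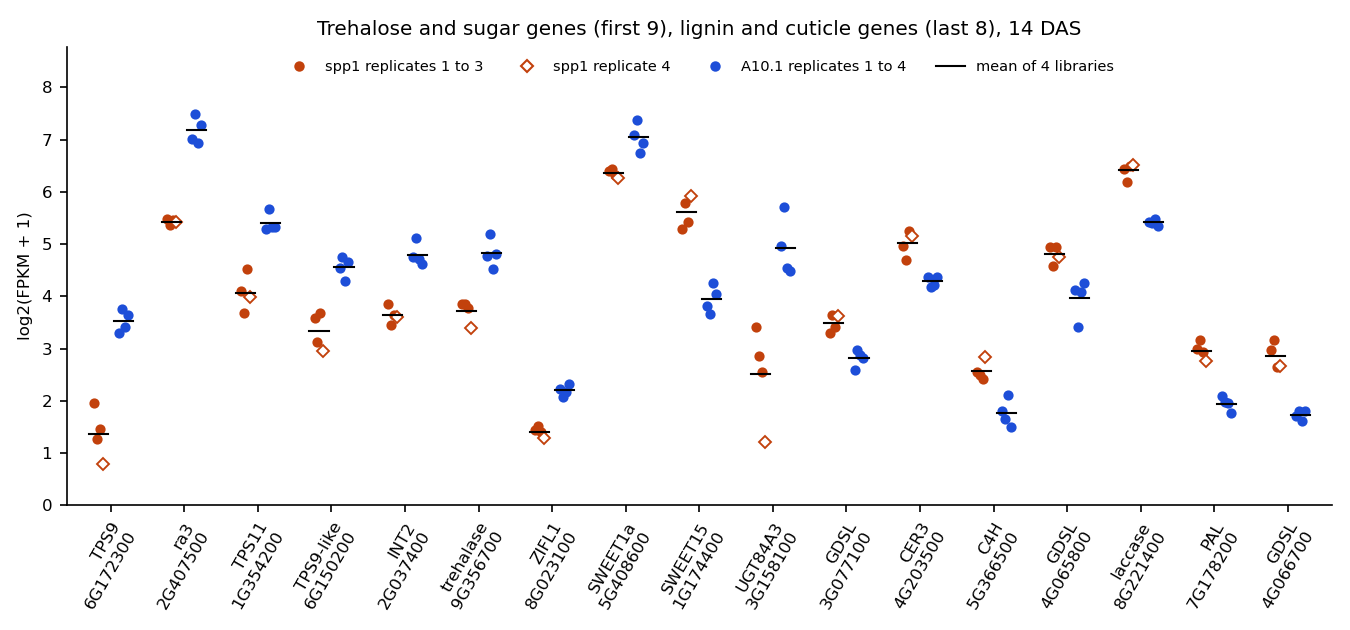
Expression of 17 genes of trehalose and sugar (first 9) and of lignin and cuticle (last 8) as log2(FPKM + 1) in each library at 14 DAS, with *spp1* left of A10.1 for each gene. Circles are libraries, open diamonds are replicate 4 of *spp1*, and black lines are means of 4 libraries. The trehalose genes lie lower in *spp1*, and the laccase gene lies at 71.7 to 90.7 FPKM in *spp1* and at 39.9 to 43.9 FPKM in A10.1.

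Photosynthesis genes, which are typical of green leaf tissue, had positive log2 fold changes throughout. Of 33 tested, 3 rose and 0 fell with 8 libraries, and 15 rose and 0 fell without replicate 4 of *spp1*. All 33 had a positive log2 fold change, with a median of 0.53. Their summed level was 3408 to 5652 FPKM in *spp1*, against 2680 to 3453 FPKM in A10.1, so that the ranges overlapped by a narrow margin, and without replicate 4 of *spp1* the lowest *spp1* sum was 4268 FPKM. The genes that rose were a light-harvesting gene (Sevir.6G164700, log2 fold change 0.62, limma adjusted p = 0.0488), a Rubisco activase gene (Sevir.8G261500, 0.70, limma adjusted p = 0.0418), and a blue copper protein gene (Sevir.2G370600, 0.56, limma adjusted p = 0.0397), which the group holds for a plastocyanin-like domain. Each of the 3 calls was lost without replicate 1 of A10.1 (adjusted p up to 0.139, 0.141, and 0.115 when 1 library was left out). Whether green tissue in the samples had a part in these differences, or in those of the lignin and cuticle genes, was not tested.

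Markers of other tissues and of stress held few called genes with 8 libraries. Of 9 pollen and anther genes tested, 1 rose and 0 fell, of 45 heat shock and chaperone genes 2 rose and 1 fell, and of 7 fermentation genes 1 rose and 0 fell. Without replicate 4 of *spp1*, 3, 3, and 2 genes of these groups rose, and 0, 2, and 0 fell. In that fit 207 of the 2457 described genes rose and 277 fell. The summed level of the pollen and anther genes was 359 to 398 FPKM in *spp1*, against 257 to 293 FPKM in A10.1, and that of the heat shock genes 1298 to 1530 FPKM in *spp1*, against 1037 to 1281 FPKM in A10.1, neither sum overlapping. The sum of the fermentation genes was 162 to 211 FPKM in *spp1*, against 165 to 206 FPKM in A10.1. The part of anther tissue or of handling in the differences of other genes was not tested. Defense and pathogenesis-related genes had 4 higher and 0 lower of 36 tested, although their median log2 fold change was -0.30. The clearest was a dirigent-like gene (Sevir.2G004500) had 30.7, 30.7, 32.7, and 31.2 FPKM in *spp1*, against 18.6, 20.4, 21.3, and 17.6 FPKM in A10.1 (log2 fold change 0.66, limma adjusted p = 0.00795). Dirigent proteins act in the coupling of phenylpropanoids, and the call held whichever library was left out. A thaumatin-like osmotin gene (Sevir.3G338100) rose by 0.78 and a gene of the major latex protein family (Sevir.7G137000) by 0.82 (limma adjusted p = 0.0334 and 0.0416), and passed in 2 and 1 of those 8 fits.

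A list of 85 genes for auxin transport, synthesis, and response, 67 of them tested, had 0 higher genes and 1 lower gene, which was *ba1*, and 20 genes had an unadjusted p under 0.05, against 4039 of the 17645 genes tested. With these 8 libraries the share called was close to the 1.93% of all genes. The median log2 fold change was -0.05, against -0.10 for all genes tested. *SPP1* itself (Sevir.5G392400) had 16.5, 21.4, 17.2, and 28.2 FPKM in *spp1*, against 30.1, 36.1, 32.8, and 31.2 FPKM in A10.1. The groups did not overlap, with replicate 4 the *spp1* library closest to A10.1. The log2 fold change was -0.65 ± 0.16 (SE, limma adjusted p = 0.072), and without replicate 4 it was -0.80 (limma adjusted p = 0.00888).

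Without replicate 4 of *spp1*, 3 of the 67 genes of the list rose and 4 fell. These were larger shares than those of all genes tested, of which 1.35% rose and 1.86% fell in that fit. Among the genes of the list, those that changed are given here. Those that rose encode AUX/IAA proteins, repressors of auxin response (Sevir.2G061900, Sevir.3G396200, Sevir.3G396300). The clearest was Sevir.3G396200, with 73.3, 79.1, 65.5, and 51.9 FPKM in *spp1*, against 47.5, 45.8, 50.0, and 44.6 FPKM in A10.1 (limma adjusted p = 0.0101 without replicate 4, and 0.0811 with it). Those that fell were *ba1*, *SPP1*, another AUX/IAA gene (Sevir.4G058700), and an auxin receptor gene of the *TIR1*/*AFB* family (Sevir.7G085300). AUX/IAA genes therefore stood on both sides.

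Among genes described by an auxin word in the annotation table, 1 rose and 4 fell of 29 tested. A *SAUR* gene (Sevir.4G025700), of a family of short auxin-induced transcripts, had 13.1, 11.8, 11.5, and 8.73 FPKM in *spp1*, against 3.40, 4.33, 4.78, and 4.81 FPKM in A10.1, a log2 fold change of 1.20 ± 0.14 (SE, limma adjusted p = 0.00536). A *GH3.2*-like gene (Sevir.5G333300), for an enzyme that conjugates auxin to amino acids, had 0.93, 1.06, 0.24, and 0.88 FPKM in *spp1*, against 4.46, 5.42, 3.24, and 4.31 FPKM in A10.1. It fell by 1.60 on the log2 scale (limma adjusted p = 0.00536). Both calls held whichever library was left out. Of the dormancy and auxin-repressed family, Sevir.9G187300 had 14.2, 7.93, 12.7, and 2.41 FPKM in *spp1*, against 43.7, 102, 42.7, and 55.0 FPKM in A10.1 (log2 fold change -2.70, limma adjusted p = 0.0218, and -2.23 without replicate 4 of *spp1*). Replicate 4 of *spp1* was lowest and replicate 2 of A10.1 highest, and the call was lost without replicates 1, 2, or 4 of A10.1 (adjusted p up to 0.0729). A second gene of the family (Sevir.2G225500) fell by 1.16 (limma adjusted p = 0.0102).

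Of 12 gibberellin genes tested, 1 rose and 3 fell. The gene that rose (Sevir.4G077500), described as a carboxylesterase and grouped for a gibberellin receptor name, had 21.7, 20.3, 18.3, and 14.4 FPKM in *spp1*, against 10.4, 7.46, 10.5, and 10.5 FPKM in A10.1, without overlap (log2 fold change 0.88, limma adjusted p = 0.0218, 0.0082 after median ratio scaling, and up to 0.0682 when 1 library was left out, passing in 2 of those 8 fits). A *GID1C*-like receptor gene (Sevir.3G252200) had 55.1, 58.7, 71.8, and 55.4 FPKM in *spp1*, against 103, 122, 98.9, and 91.5 FPKM in A10.1 (log2 fold change -0.78, limma adjusted p = 0.0152, and 0.055 without replicate 1 of A10.1). The other genes that fell were gibberellin 2-oxidase genes, whose enzymes inactivate the hormone (Sevir.7G180700, Sevir.3G150400), with log2 fold changes of -1.19 and -0.83 (limma adjusted p = 0.049 and 0.0363). Neither passed after median ratio scaling (limma adjusted p = 0.0834 and 0.0836), and both calls were lost without any of 7 of the libraries and kept without replicate 4 of *spp1*, with adjusted p values of up to 0.155 and 0.128. Among 18 cytokinin genes 0 rose and 1 fell. This was a *LOG*-like gene (Sevir.9G219500), for an enzyme that activates cytokinins, with a log2 fold change of -0.69 (limma adjusted p = 0.015, up to 0.056, lost without either replicate 1 of A10.1 or replicate 3 of *spp1*). Of 6 abscisic acid genes, 0 rose and 2 fell, an *ABI5*-like gene (Sevir.5G394500, -0.63) and a *PYL4*-like receptor gene (Sevir.9G441100, -0.75), with adjusted p values of 0.0334 and 0.0218 by limma that reached 0.121 (replicate 2 of A10.1 left out) and 0.0799 (replicate 1 of A10.1 left out). Of 6 jasmonate genes, 1 rose and 0 fell. It was a gene for a PLAT domain protein (Sevir.7G129800), grouped by the words of its description, which names a lipase/lipooxygenase family and a wound/stress protein. It had 465, 396, 425, and 318 FPKM in *spp1*, against 221, 245, 241, and 249 FPKM in A10.1 (log2 fold change 0.73, limma adjusted p = 0.0181, passing in 4 of the 8 fits that left out a library). Ethylene genes had 0 higher and 0 lower of 6 tested.

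The largest groups by number were ubiquitin and F-box genes and protein kinase genes. Of 118 ubiquitin and F-box genes tested, 1 rose and 13 fell, and of 130 protein kinase genes 2 rose and 10 fell. Their medians were -0.45 and -0.43, close to the -0.41 of all described genes. An *ARI1*-like ubiquitin ligase gene (Sevir.9G163100) had 7.24, 7.18, 8.44, and 6.92 FPKM in *spp1*, against 14.2, 15.6, 14.8, and 14.6 FPKM in A10.1. Its replicates were close together in both genotypes, and it fell by 0.91 on the log2 scale (limma adjusted p = 0.00306). A gene for the beta subunit of SnRK1 (Sevir.3G200700), a kinase that responds to low sugar, fell by 1.22 (limma adjusted p = 0.0283, up to 0.0952 when 1 library was left out, highest without replicate 2 of A10.1). Of 80 glycoside hydrolase and related genes, 0 rose and 6 fell. Their median was -0.43, and the share that fell was not above the 8.67% of all described genes. The 6 included the trehalase gene, and also *ra3* and a receptor kinase gene (Sevir.5G205600), which the group holds for words in their descriptions. Another was an *XTH25*-like gene (Sevir.4G258600), for an enzyme that remodels xyloglucan of the cell wall. It had 241, 230, 278, and 225 FPKM in *spp1*, against 406, 605, 384, and 389 FPKM in A10.1 (-0.85, limma adjusted p = 0.0247, passing in 3 of the 8 fits that left out a library).

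In the group of cell cycle and DNA replication genes, 3 of 69 rose and 5 fell. Of these 8 genes, 6 encode F-box proteins, which the group holds for the word cyclin in their descriptions. Without F-box genes, a division made after the values were seen, 2 of 36 rose and 0 fell. Histone and chromatin genes had 0 higher and 0 lower of 36 tested, and 33 of them had a negative log2 fold change, with a median of -0.45. Genes for ribosomal proteins and translation factors had 2 higher and 2 lower of 79. A translation initiation factor gene (Sevir.6G172100, eIF3 subunit C) had 0.88, 1.15, 0.97, and 0.72 FPKM in *spp1*, against 3.91, 4.41, 3.33, and 3.80 FPKM in A10.1, and fell by 1.33 (limma adjusted p = 0.00197). The genes that rose were those for ribosomal protein S4 (Sevir.3G037800, log2 fold change 0.78, limma adjusted p = 0.00536) and for a rubber elongation factor (Sevir.3G037500, 0.65, limma adjusted p = 0.0152), which is no translation factor.

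Enzymes of secondary metabolism had more higher than lower genes. Glutathione transferase and UDP-glucosyltransferase genes had 5 higher and 1 lower of 22, cytochrome P450 genes 4 and 1 of 18, and peroxidase genes 3 and 1 of 17, with medians of 0.54, 0.47, and 0.47. A glutathione transferase gene (Sevir.5G459100) had 6.72, 8.45, 13, and 20.3 FPKM in *spp1*, whereas all 4 A10.1 values were 0 (log2 fold change 3.60, limma adjusted p = 0.000777). This difference was not particular to 14 DAS. At 12 DAS the gene had 14.3, 7.0, and 12.6 FPKM in *spp1*, against 0 to 0.18 FPKM in A10.1 (limma adjusted p = 0.00205). At 10 DAS it had 7.04 to 26.8 FPKM in *spp1* and 0 in A10.1 (limma adjusted p = 0.0046). A *KAO2*-like P450 gene (Sevir.7G199600), for an enzyme of gibberellin synthesis, had 15.2, 16.1, 16.6, and 10.6 FPKM in *spp1*, against 7.72, 7.29, 8.11, and 7 FPKM in A10.1 (log2 fold change 0.86, limma adjusted p = 0.0193, up to 0.0718 when 1 library was left out, highest without replicate 2 of A10.1). A peroxidase gene (Sevir.3G005800) rose by 0.64 and another (Sevir.2G246900) fell by 0.83 on the log2 scale (limma adjusted p = 0.00961 and 0.00381), whichever library was left out.

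Some of the genes with the largest changes had no function named in the annotation or belonged to none of these groups. Listed at 0 in all *spp1* libraries of 14 DAS was a gene described by a conserved upstream reading frame (Sevir.9G258500). It had 7.98, 6.84, 5.39, and 5.01 FPKM in A10.1. At the earlier stages its value was 0 or near 10 FPKM within a genotype. At 12 DAS it had 9.16 FPKM in replicate 4 of A10.1 and 0 in the other libraries. At 10 DAS it had 9.47 FPKM in replicate 2 of *spp1*, 11.1 FPKM in replicate 4 of A10.1, and 0 in the others. An undescribed gene (Sevir.1G359500) had 9.74, 8.81, 8.73, and 14.0 FPKM in *spp1* and was listed at 0 in 3 of the A10.1 libraries, with 5.96 FPKM in replicate 2. Its call (limma adjusted p = 0.0444) was kept only without replicate 2 of A10.1, and reached 0.131 when 1 library was left out. At 12 DAS this gene had 7.47 FPKM in replicate 1 of A10.1 and 0 in the other libraries. At 10 DAS it had 7.03 FPKM in replicate 1 of *spp1*, 3.66, 11.5, and 7.73 FPKM in replicates 1 to 3 of A10.1, and 0 in the others. A proline oxidase gene (Sevir.9G336200), for an enzyme of proline breakdown, had 36.8, 51.2, 32.1, and 47.8 FPKM in *spp1*, against 17.2, 12.4, 19.0, and 14.4 FPKM in A10.1, a log2 fold change of 1.35 ± 0.17 (SE, limma adjusted p = 0.0077). A germin-like gene (Sevir.3G304500) rose by 1.14 (limma adjusted p = 0.00536), and an uncharacterized gene (Sevir.8G036500) by 1.17 (limma adjusted p = 0.00319). An undescribed gene with low values (Sevir.1G292600) had 3.01, 3.61, 1.81, and 5.26 FPKM in *spp1*, against 1.05, 1.01, 0.87, and 0.4 FPKM in A10.1 (1.23, limma adjusted p = 0.0334), and passed in 2 of the 8 fits that left out a library.

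An asparagine synthetase gene (Sevir.3G250200), known in Arabidopsis as *ASN1* and induced in the dark and by low sugar there, had 1.42, 2.68, 1.55, and 0.19 FPKM in *spp1*, against 7.56, 15.6, 6.35, and 8.95 FPKM in A10.1. The highest *spp1* library was below the lowest A10.1 library. Its log2 fold change was -2.15 (limma adjusted p = 0.0193), or -1.83 without replicate 4 of *spp1*, and the call was lost without replicates 1, 2, or 4 of A10.1 or replicate 3 of *spp1* (adjusted p up to 0.0662). A gene described as a trypsin family protein with a PDZ domain (Sevir.7G311000) had 1.62, 3.05, 4.40, and 3.71 FPKM in *spp1*, against 18.3, 22.4, 16.3, and 16.7 FPKM in A10.1 (log2 fold change -2.25, limma adjusted p = 0.00197). It passed at 12 DAS as well (log2 fold change -2.01, limma adjusted p = 0.0053). Other large decreases were those of Sevir.1G184300, described as a putative inhibitor of the F1F0-ATPase (-2.28, limma adjusted p = 0.00169), Sevir.1G246600, with a domain of unknown function (-2.19, limma adjusted p = 0.0017), and the uncharacterized Sevir.3G105700 (-2.35, limma adjusted p = 0.0129, and 0.0507 without replicate 1 of A10.1).

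Some higher genes were neighbours. In a scan made after the values were seen, 23 consecutive tested genes from Sevir.3G037500 to Sevir.3G040600 were all higher in *spp1* at 14 DAS, with a median log2 fold change of 0.53, against -0.11 for 40 genes around them, and 9 of the 120 higher genes (7.5%) lay there. Among them were the ribosomal protein S4 and rubber elongation factor genes and a glutathione transferase gene (Sevir.3G039600). The gene with the largest change of the run was Sevir.3G038200, whose descriptions differ and name a glycine-rich cell wall protein and a heavy metal transport superfamily, among others. It had 152, 175, 172, and 202 FPKM in *spp1*, against 69.0, 80.3, 71.8, and 63.1 FPKM in A10.1. The run was not particular to 14 DAS. At 12 and 10 DAS its medians were 0.54 and 0.66, against -0.05 and -0.02 for the genes around it. The next longest higher run held 6 genes (Sevir.5G457800 to Sevir.5G458300), with medians of 0.56, 0.50, and 0.62 at 14, 12, and 10 DAS. The longest run of lower genes held 11.

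The genes that passed only without replicate 4 of *spp1* were 125 higher and 119 lower genes. The *DRNL*-like gene (Sevir.1G220900), for an AP2 factor that in Arabidopsis acts in founder cells of organs, had 10.6, 8.53, 6.44, and 33.9 FPKM in *spp1*, against 26.6, 31.1, 31.4, and 21.3 FPKM in A10.1. Replicate 4 of *spp1* exceeded every A10.1 library, whereas the other 3 lay far below. The log2 fold change was -1.12 with this library (limma adjusted p = 0.168) and -1.60 without it (limma adjusted p = 0.00426). A *MYB17*-like gene (Sevir.7G189500), related to an Arabidopsis gene of floral meristem identity, had 5.99, 9.67, 6.55, and 17.2 FPKM in *spp1*, against 21.4, 25.8, 25.8, and 18.7 FPKM in A10.1 (adjusted p = 0.00427 without replicate 4, 0.0549 with it, by limma). Among the higher genes, a purine permease gene (Sevir.9G516700) had 40, 35.3, 25.0, and 12.7 FPKM in *spp1*, against 16.7, 13.6, 12.6, and 16.7 FPKM in A10.1 (adjusted p = 0.0119 without replicate 4, 0.185 with it, by limma). Another germin-like gene (Sevir.3G317200) had 7.69, 6.41, 3.67, and 2.29 FPKM in *spp1*, against 2.11, 1.73, 1.66, and 0.85 FPKM in A10.1 (adjusted p = 0.0194 without replicate 4, 0.0872 with it, by limma). The uncharacterized gene Sevir.3G212000 was one of the lower genes, with 2.79, 2.5, 3.87, and 10.2 FPKM in *spp1*, against 12.4, 9.78, 15.7, and 14.9 FPKM in A10.1 (adjusted p = 0.00245 without replicate 4, 0.0625 with it, by limma). In each of these genes replicate 4 was the *spp1* library nearest to or inside the A10.1 range. They were picked as genes that passed only without it, so its place follows in part from that choice.

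The genes called at 14 DAS were then followed in the 12 DAS libraries, which take no part in the 14 DAS comparison. At 12 DAS, 55 of the 17645 genes passed (0.312%). Of the 120 genes higher at 14 DAS, 110 (91.7%) had a positive log2 fold change at 12 DAS, against 49.0% of all genes tested, with a median of 0.39, and 9 of them passed in the same direction. Of the 221 lower genes, 200 (90.5%) were negative at 12 DAS, against 51.0% of all genes, with a median of -0.44, and 23 passed in the same direction. At 10 DAS the shares of the same sign were 90.8% and 77.8%, against 41.4% positive and 58.5% negative among all genes tested, and the medians were 0.20 and -0.16.

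**Figure D4:**
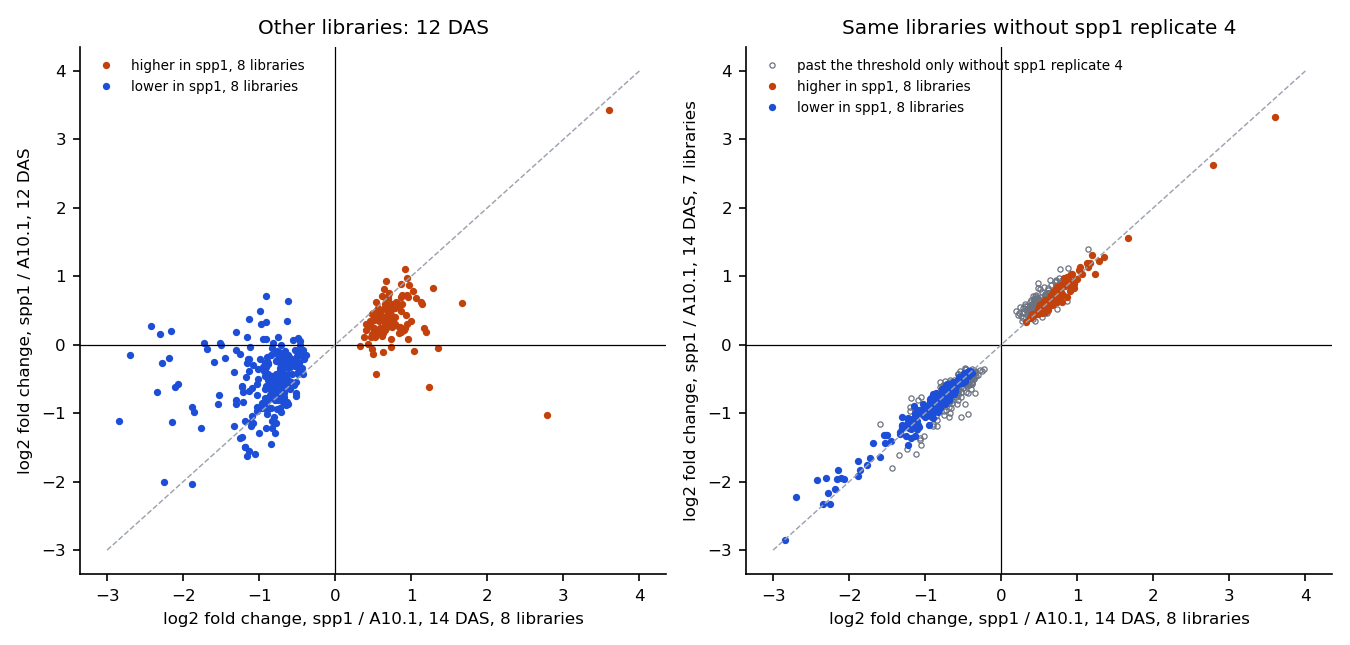
Log2 fold changes of *spp1* over A10.1 for the genes called at 14 DAS with 8 libraries (horizontal axis) against those in the 12 DAS libraries (left) and in the 7 libraries left without replicate 4 of *spp1* (right). Each point is a gene, orange for higher and blue for lower in *spp1*, open circles passed only without replicate 4, and the dashed line marks equal values. At 12 DAS 110 of 120 higher genes lie above 0 and 200 of 221 lower genes lie below 0.

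Several of the development genes had lower values in *spp1* at 12 DAS too. *ba1* had 17.9, 16.4, and 14.4 FPKM in *spp1*, against 54.5, 39.2, and 50.5 FPKM in A10.1 at 12 DAS (log2 fold change -1.5, limma adjusted p = 0.0112). *ra2* passed at 12 DAS too (-1.14, limma adjusted p = 0.0363), as did *ocl2* (-1.01, limma adjusted p = 0.0443). *ra3* had 12.3, 5.10, and 6.49 FPKM in *spp1*, against 24.4, 18.7, and 14.2 FPKM in A10.1, without overlap but not past the threshold (limma adjusted p = 0.163). *bd1* was at 0.00 to 0.46 FPKM in *spp1* and 0.00 to 0.38 FPKM in A10.1, and at 10 DAS it had 1.68, 0.46, 1.18, and 0.56 FPKM in *spp1* and was listed at 0 in A10.1, the opposite order to that at 14 DAS (limma adjusted p = 0.233 at 10 DAS). The change of the genotype difference from 12 to 14 DAS did not pass for any of these genes (limma adjusted p = 0.797 for *ba1*, 0.797 for *ra3*, 0.943 for *ra2*, 0.897 for *ocl2*, and 0.366 for *bd1*).

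Genes lower in *spp1* at 14 DAS were often genes that rise with age in A10.1. Between 10 and 12 DAS in A10.1, libraries that take no part in the 14 DAS comparison, 4.74% of all genes tested rose and 4.31% fell. Of the 221 lower genes, 106 (48.0%) rose and 19 (8.6%) fell. Of the 120 higher genes, 7 (5.83%) rose and 28 (23.3%) fell, a larger share than the 4.31% of all genes tested. Of the genes called lower in the fit of all 22 libraries 20.2% rose, and of those called higher 2.44%. The share of higher genes that rose was 2.15% without replicate 3 of A10.1, 2.33% without replicate 2 of *spp1*, and 2.93% without replicate 4 of *spp1*. It was 2.28% with replicate number as a block, and after median ratio scaling 3.73%. *ba1* and *ra3* rose by 3.47 and 2.68 on the log2 scale between these stages in A10.1 (limma adjusted p = 0.000179 and 0.000159), and the laccase gene Sevir.8G221400 fell by 0.80 (limma adjusted p = 0.00189). Other lower genes fell with age, among them the *TPS11*-like gene Sevir.1G354200 (-1.05, limma adjusted p = 0.00961).

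Whether the genotype difference itself changed between 12 and 14 DAS was tested as an interaction. Only 7 genes passed (0.0397% of those tested, 830 with an unadjusted p under 0.05, limma), 6 of them among the 341. The *TPS9*-type gene Sevir.6G172300 had the largest change. At 12 DAS it had 0.06, 0.28, and 0.48 FPKM in *spp1*, against 0.05, 0.19, and 0.05 FPKM in A10.1, and the difference between genotypes changed by -2.36 on the log2 scale from 12 to 14 DAS (limma adjusted p = 0.0251). Its level at 14 DAS stayed under 3 FPKM in *spp1* and reached 8.81 to 12.5 FPKM in A10.1. Without replicate 4 of *spp1*, 2 genes passed this test.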

How the data were processed

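FPKM values of 35214 transcripts were made by the authors, who trimmed reads with Trimmomatic, checked them with FastQC, mapped them with tophat2 on a bowtie2 index of version 1 of the S. viridis genome, and ran cuffdiff. Versions are not given in the sources used here. The tables' fold changes, q-values, and group means hold the authors' own calls and were not used; their annotation columns were. Strand-specific libraries were sequenced as paired ends. What a replicate number marks is not stated, so p-values measure the spread between pooled samples.

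Values were tested as log2(FPKM + 1) for genes whose mean over the 8 libraries was 1 FPKM or more, in R 4.3.3 with limma 3.58.1 (genotype as the only term, empirical Bayes with trend, Benjamini-Hochberg adjustment over 17645 genes, threshold 0.05). Python 3.11.15 drew the figures with matplotlib 3.10.9. Other settings were a pseudocount of 0.1, no filter, a mean of at least 5 FPKM, median ratio scaling, a joint fit of the 22 libraries, replicate number as a block, and each library left out. The code was tested on simulated data.

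The 47 annotation groups were searched by words, and the list of 85 auxin genes comes from the study. Members, lists, and tests were chosen with earlier results of these data known. Genes named were *SPP1* and the auxin genes past the threshold, homologs of maize development genes (1 of them and 1 marker gene are not reported here), the 10 largest changes in each direction without overlap, up to 4 per group, and the 5 largest in each direction that passed only without replicate 4 of *spp1*; which of these got fuller values in the text was decided after the values were seen. No sequences or coordinates are shown, since no reference for these gene identifiers was used here.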

Additional observations from a re-analysis of the deposited data

Results flagged for a closer look

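Single libraries lay far from the other replicates of their group for several genes. Chance alone gives such a library in about 1 of 20 groups, if groups are chosen without regard to their values. At that rate, the number of groups looked at would give a list of about this length. Most genes listed here were named for their results, some of them for passing only without replicate 4 of *spp1*. The rate need not hold for such genes, so it cannot decide whether the list is longer or shorter than chance gives. No entry is therefore taken as more than chance. Replicate 4 of *spp1* had 33.9 FPKM of the *DRNL*-like gene Sevir.1G220900 (others 6.44 to 10.6) and 73.9 FPKM of *abph1*, Sevir.7G182100 (others 18.3 to 25.5). Replicate 1 of *spp1* had 31.7 FPKM of Sevir.8G036500 (others 24.7 to 25.8). Replicate 2 of A10.1 had 5.96 FPKM of Sevir.1G359500 (others 0), 75.3 FPKM of the LTI6B-like gene Sevir.3G056200 (others 51.0 to 52.3), and 89.35% of reads mapped (others 92.59% to 93.22%). Replicate 3 of A10.1 had 12.9 FPKM of Sevir.5G082300 (others 7 to 7.26).

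The genotype difference changed between 12 and 14 DAS for 7 genes by limma's interaction test, and was lower at 14 DAS for 6 of them. The change on the log2 scale was -2.36 for Sevir.6G172300 (adjusted p = 0.0251 by limma), -2.03 for Sevir.1G184300 (0.0336), -2 for Sevir.1G246600 (0.0334), -1.62 for the universal stress protein gene Sevir.9G243700 (0.0336), -1.28 for Sevir.4G142400 (0.0336), and -1.27 for the inositol transporter gene Sevir.2G037400 (0.0336). It was 1.31 for Sevir.7G056600 (0.0251), which did not pass at 14 DAS.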

How the results depend on the processing

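Fitting all 22 libraries together gave 1654 genes (451 higher, 1203 lower). Leaving out 1 library gave 67 to 568 genes, 23 to 239 higher and 44 to 329 lower. Median ratio scaling raised the higher genes to 241, or 393 without replicate 4 of *spp1*.

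Whether replicate numbers pair the libraries is uncertain. No measure was fixed for this check, and 10 versions were computed after the data were seen. The first, Pearson's r of log2 deviations from the group mean over the genes tested, gave r of 0.301, 0.219, 0.195, and 0.067 for same-numbered libraries, and the fits here follow it: with replicate 4 under the limit of 0.1, no block was used. In 3 of the 10 versions all 4 pairs were over 0.1 (Spearman's rho, lowest 0.11, and for means of 5 FPKM or more 0.107 by Pearson's r and 0.166 by Spearman's rho), and these would have made the block the rule. With it, 511 genes passed (219 higher, 292 lower), and 1038 (422 higher, 616 lower) without replicate 4. Some different-numbered libraries had a higher r, up to 0.483.

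The 7 interaction genes became 2 without replicate 4 and 3 after scaling. *SPP1* ranged from -0.80 to -0.55 when 1 library was left out, and passed at -0.65 in the fit of 22 libraries (adjusted p = 0.0317 by limma). Higher auxin genes numbered 3 after scaling and in the fit of 22 libraries, and 0 to 3 when 1 library was left out. Lower auxin genes numbered 6 in the fit of 22 libraries, 2 with the block, and 1 to 4 when 1 library was left out. Shares with the same sign at 12 DAS were 90.7% to 96.8% (higher) and 81.0% to 91.9% (lower) when 1 library was left out. The share of higher genes that rose with age in A10.1 was 2.44% in the fit of 22 libraries, 2.28% with the block, and 2.15% to 6.25% when 1 library was left out, and that of lower genes 20.2% in the fit of 22 libraries and 39.3% to 51.9%. *BIF2* (Sevir.3G410700), at -0.04, became 0.07 after scaling and -0.35 to 0.19 when 1 library was left out. Of 111 named genes past the threshold, 32 passed whichever library was left out, and median ratio scaling ended 13 calls. FPKM carry no counts, so no detection limit was set.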
